A study of Homo sapiens with 11 samples.

Results

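The keratins of simple and squamous epithelium were described in lung adenocarcinoma cells with and without introduced TRIM58. The 10 genes KRT4, KRT7, KRT8, KRT15, KRT17, KRT18, KRT19, KRT80, KRT81 and KRT86 were chosen on their measured values in these same arrays, so their levels and differences are given as a description, and where calls of the fit over all genes are counted among them these are no test of the keratins. Of the 10, 9 had at least 1 probe named through a RefSeq accession, among 20249 genes with a named probe, and these 9 were read by 12 probes. KRT86 had no named probe, and no value is given under its name. One probe, A_23_P363769, was kept unnamed because the RefSeq table used here does not hold its accession, so whether it reads KRT86 could not be settled. All but KRT80, KRT81 and KRT86 belong to the simple, stratified or basal epithelial types of the group's name. KRT81 and KRT86 are hair keratins, and KRT80 is a type II keratin of many epithelia.

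Keratins are the intermediate filament proteins of epithelial cells. A filament is built from pairs of a type I chain, here KRT15, KRT17, KRT18 and KRT19, and a type II chain, here KRT4, KRT7, KRT8, KRT80, KRT81 and KRT86. KRT8 and KRT18 are the usual pair of simple epithelium, KRT7 and KRT19 accompany them in ducts and in lung adenocarcinoma, KRT15 and KRT17 mark basal cells, and KRT4 is a keratin of non-keratinizing squamous epithelium. The filaments are anchored at desmosomes by plakoglobin, plakophilins and plakins.

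RNA was hybridised to 11 arrays in 1 colour. The established human lines A549 and HCC827, from lung adenocarcinoma and described as lacking their own TRIM58, were infected with a retroviral vector that was either empty (mock) or carried FLAG-tagged wild-type TRIM58 (TRIM58-WT), a tripartite motif ubiquitin ligase, and all cells were selected with G418. A549 had 3 mock replicates on 4 arrays (1-1 and 1-2 were averaged, since the labels give them 1 cell) and 3 TRIM58-WT replicates, and HCC827 had 2 mock and 2 TRIM58-WT replicates. The study's methods describe isolated clones, a legend calls the HCC827 transfectants crude, and the labels do not tell which clone an array holds, so a difference between TRIM58-WT and mock cannot be told apart from a difference between clones.

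A level below is the log2 of a probe's signal minus the 75th percentile of that array. Each probe has its own brightness, so levels were compared between arrays and not between probes. A probe was well above background where the scanner software marked it so, and it was tested where all arrays of 1 of the compared groups, or more, were marked. A gene was represented by its brightest probe and was called where the adjusted p of limma was under 0.05 and the change reached 2-fold. A gene that was tested only through the group where it was high could hardly be called in the other direction. Its call and adjusted p are therefore a description, and nothing is read from its count against all genes. Among the genes called with all A549 arrays, these were KRT19, KRT6A, PKP2, PPL, KLF4, NEFL, INA, EPCAM and CLDN4 through mock, and SOX2 through TRIM58-WT. Replicates are separate samples by label, and nothing says that they were independent infections, so errors and p-values measure the spread between these samples.

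The share of probes well above background ran from 40.1% to 49.99% over the 11 arrays. Slide 1 held all HCC827 arrays and A549 mock 1-1, mock 2 and TRIM58-WT 1, and slide 2 held the other A549 arrays. The array labelled A549 mock 3 and TRIM58-WT 2 and 3, all on slide 2, had the lowest shares (40.5%, 40.1% and 40.4%). Their 75th percentile signals were 60.3, 62.5 and 56.6, against 90.5 or more elsewhere and 102.9 on A549 mock 1-2 of that slide. The part of this in values not above background was not tested. The array labelled A549 mock 3 stood apart from the other mock arrays of its line. Its differences from A549 mock 2 had an SD of 0.82 (log2) over the tested probes, against 0.29 between mock arrays 1-1 and 1-2 and 0.24 between TRIM58-WT replicates 2 and 3. No such SD was computed for TRIM58-WT 1. Deviations of TRIM58-WT 1 from its group mean correlated with those of mock 1 and 2 (Pearson's r = 0.503 and 0.405). Those of mock 3 correlated with TRIM58-WT 2 and 3 (0.57 and 0.503). Probes called in A549 rose from 1171 to 1466 without TRIM58-WT 1 and to 2193 without the array labelled A549 mock 3. The probe of TRIM58 was well above background on the array labelled A549 mock 3 alone, at −0.71. It was so on no TRIM58-WT array (−4.84, −4.63 and −4.63 in A549 and −5.64 and −5.38 in HCC827). Where this probe lies relative to the introduced coding sequence is not given in the sources used here. The probe can thus check neither the transgene nor the label of any array. The keratins are therefore given by array, and the calls gained in A549 without the array labelled A549 mock 3 are stated for each list of genes except the cell type markers. None of the genes named as called below for those lists in A549 lost its call without it.

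KRT4 carried the widest difference between HCC827 TRIM58-WT and mock among these keratins, so the bases before its annotated start are shown. The 250 bases upstream of the start of KRT4 (RefSeq, GRCh38.p14, chr12:52814117-52814366, minus strand, 5′ to 3′) follow, with the E-box match in capitals.
KRT4: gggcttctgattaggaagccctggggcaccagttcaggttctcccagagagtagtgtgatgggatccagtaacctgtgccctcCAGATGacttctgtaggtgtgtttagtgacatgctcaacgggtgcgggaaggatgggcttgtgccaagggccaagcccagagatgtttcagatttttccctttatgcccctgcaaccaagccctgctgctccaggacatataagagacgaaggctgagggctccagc
Both strands were searched for 5 motifs. The window held 1 match to CANNTG (the E-box), 167 bases before the start, a motif that 61.8% of 35116 upstream windows of the same length held. There were 0 matches to TATAAA (the TATA box, in 10.72% of windows), to CCAAT (the CCAAT box, in 32.0%), to GGGCGG (the GC box, in 42.6%) and to TGACTCA (the AP-1 site, in 4.203%), which says only that these letters are not in this window.

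KRT8 and KRT18, the filament pair of simple epithelium, were well above background on all 11 arrays. KRT8 read 7.93, 7.70, 7.85 and 7.71 on A549 mock arrays 1-1, 1-2, 2 and 3 and 6.94, 6.06 and 6.26 on A549 TRIM58-WT 1, 2 and 3. In HCC827 the mock arrays read 5.21 and 5.07 and the TRIM58-WT arrays 5.74 and 5.76. The groups did not overlap in either line, and the order was reversed: TRIM58-WT was below mock in A549 by 1.37 (−1.37, SE 0.25, n = 3 and 3) and above it in HCC827 by 0.61 (SE 0.13, n = 2 and 2). The A549 arrays lay above the HCC827 arrays throughout, by 2.65 between the mock groups (SE 0.16).

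The other probes of KRT8 did not all follow its brightest one. Probe A_24_P67395 read 0.52, 0.87, −0.48 and −0.27 in A549 mock and −1.30, −2.07 and −2.66 in A549 TRIM58-WT, a difference of −1.99 (SE 0.44), but −2.84 and −2.34 against −3.15 and −2.09 in HCC827, where the groups overlapped. Probe A_33_P3372368, which carries a non-coding transcript record of KRT8, read 2.38, 2.31, 2.39 and 3.05 in A549 mock and 2.48, 3.11 and 3.19 in A549 TRIM58-WT. That probe therefore went the other way in A549, with a difference of 0.33 (SE 0.29) and overlapping groups.

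KRT18 moved in the same directions as KRT8 by smaller amounts. Its brightest probe read 9.24, 9.53, 9.48 and 10.01 on the A549 mock arrays and 8.80, 8.92 and 9.19 on the A549 TRIM58-WT arrays, with the lowest mock array just above the highest TRIM58-WT array. In HCC827 the mock arrays read 8.17 and 8.13 and the TRIM58-WT arrays 8.40 and 8.73. The differences were −0.65 (SE 0.23) in A549 and 0.42 (SE 0.17) in HCC827. A second probe, A_24_P42136, gave −1.22 (SE 0.21) in A549, where its TRIM58-WT arrays read 6.92, 6.92 and 6.96 against 7.89 or more in mock, and 0.41 (SE 0.20) in HCC827. The probes thus shared a direction, but the first stayed under the 2-fold limit and the second passed it. When arrays were scaled on their medians, the first probe differed by −1.02 in A549, past that limit. A probe of the pseudogene KRT18P55, a near copy whose signal cannot be separated from KRT18 here, read 7.56 to 8.53 in A549 mock and 7.25 to 7.40 in A549 TRIM58-WT.

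KRT19, the smallest keratin and a partner of KRT8 in simple epithelium, showed the widest change of the group. It read 7.30, 7.30, 7.52 and 6.11 on the A549 mock arrays and −2.56, −2.47 and −2.56 on the A549 TRIM58-WT arrays, none of which was well above background. Since only the mock side was measured, the difference is a bound. Taken against the lowest signal of any probe marked well above background on each array, KRT19 was at least 723-fold lower in A549 TRIM58-WT. HCC827 mock read 8.80 and 8.80 and HCC827 TRIM58-WT 9.02 and 9.16, a difference of 0.29 (SE 0.13) in the other direction with no overlap. Within the first slide, which holds 1 A549 TRIM58-WT array, the signals differed by −9.97, and within the second by −9.22, both against a signal not above background. A probe of the pseudogene KRT19P2 read 2.26, 2.32, 1.68 and 0.77 in A549 mock, was well above background on no A549 TRIM58-WT array, and read 4.12, 4.07, 2.76 and 4.56 over the HCC827 arrays; its sharing of signal with KRT19 was not tested.

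KRT7, the other simple-epithelial type II keratin, stayed high on every array. It read 8.94, 9.31, 9.33 and 9.95 in A549 mock, 9.03, 10.08 and 10.05 in A549 TRIM58-WT, 9.06 and 9.26 in HCC827 mock and 9.32 and 9.48 in HCC827 TRIM58-WT. The A549 groups overlapped, with a difference of 0.25 (SE 0.36) that turned to −0.12 when arrays were scaled on their medians. The HCC827 difference was 0.24 (SE 0.15). Thus of the 4 simple-epithelial keratins in A549 TRIM58-WT cells, KRT19 lost its signal over background, KRT8 and KRT18 stood lower at high levels on their brightest probes, and KRT7 overlapped with mock.

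**Figure D1:**
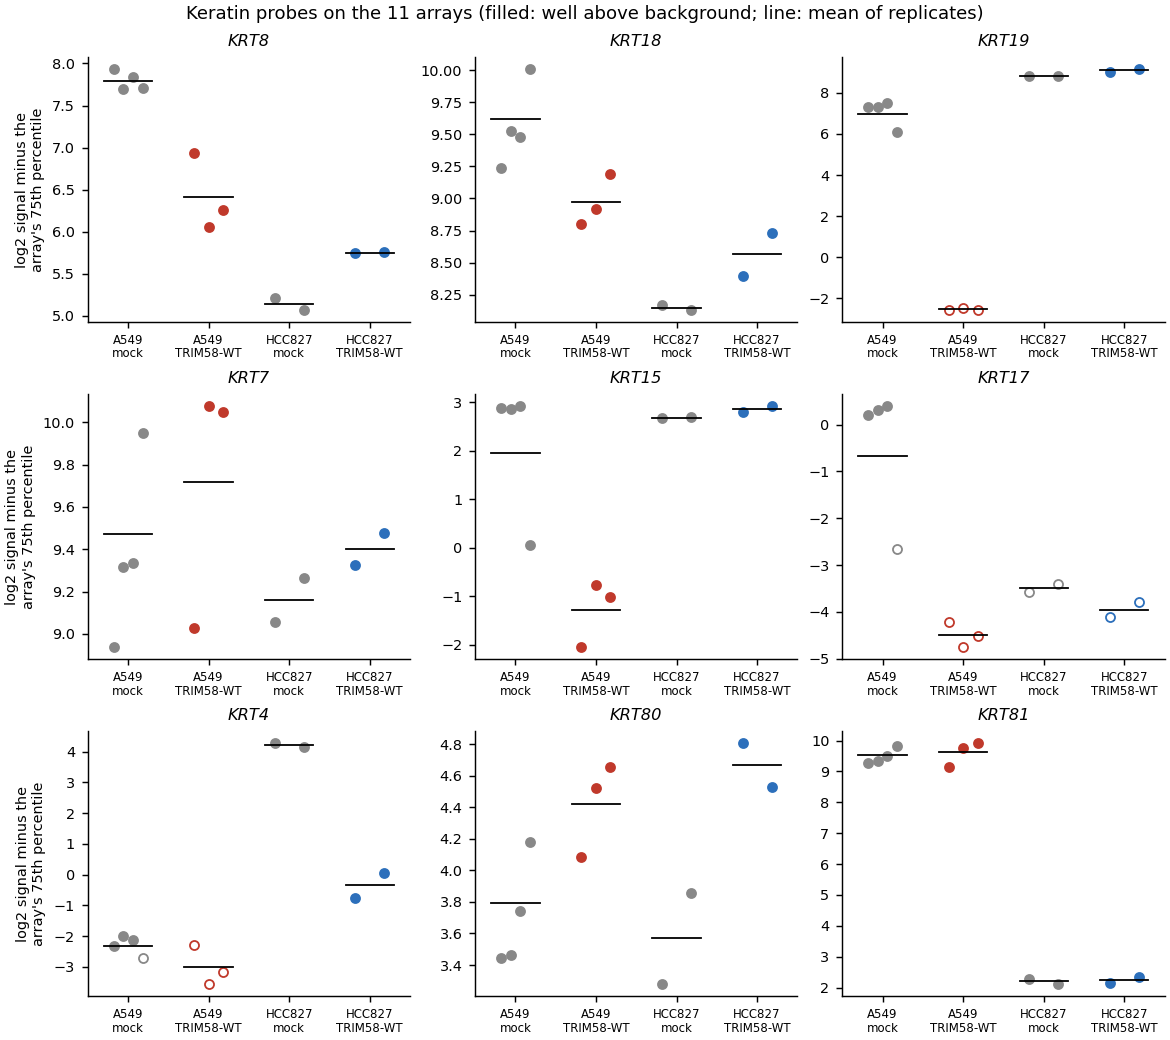
Each panel plots 1 keratin on its brightest probe, with the log2 signal minus the 75th percentile of the array on the y axis (its range differs between panels) and the 4 groups on the x axis. Points are arrays, filled where the probe was well above background, and lines are means of replicates. KRT19 stood at 6.11 or more in A549 mock and at −2.47 or less, not above background, in A549 TRIM58-WT, KRT4 stood at 4.14 or more in HCC827 mock and 0.06 or less in HCC827 TRIM58-WT, and KRT81 separated the lines.

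KRT15 lies next to KRT19 on chromosome 17 in the RefSeq order of keratin genes, and its levels over the 10 replicates followed those of KRT19 (Pearson's r = 0.93, a description over replicates that share lines and groups). KRT15 is a keratin of basal cells. It read 2.87, 2.87 and 2.92 on A549 mock arrays 1-1, 1-2 and 2 but 0.05 on the array labelled A549 mock 3, and −2.05, −0.77 and −1.02 in A549 TRIM58-WT. All 11 arrays were well above background. The groups did not overlap and differed by −3.23 (SE 0.82), and the difference widened to −4.18 without the array labelled A549 mock 3. In HCC827 KRT15 stood at 2.67 and 2.69 with the empty vector and at 2.79 and 2.91 with TRIM58-WT, 0.17 higher (SE 0.13).

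KRT17, a keratin of basal and injured squamous epithelium, was well above background only on A549 mock arrays 1-1, 1-2 and 2, at 0.20, 0.31 and 0.39. The array labelled A549 mock 3 read −2.65, the A549 TRIM58-WT arrays −4.22, −4.75 and −4.52, and the 4 HCC827 arrays −4.11 to −3.41. It failed the filter in every comparison, since the A549 mock arrays were not all above background and no array of the other groups was. As a bound over all mock replicates it was at least 3.90-fold lower in A549 TRIM58-WT than in A549 mock and at least 5.92-fold higher in A549 mock than in HCC827 mock.

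KRT4 showed the reverse distribution between the lines. It read 4.28 and 4.14 in HCC827 mock and −0.74 and 0.06 in HCC827 TRIM58-WT, all well above background, which is a difference of −4.55 (SE 0.30) or 23.5-fold. In A549 it read −2.31, −1.98, −2.12 and −2.71 in mock, with the array labelled A549 mock 3 not above background, and −2.30, −3.56 and −3.17 in TRIM58-WT, none above background. The A549 groups overlapped and were not tested. A549 mock lay 6.53 below HCC827 mock (−6.53, SE 0.24). With the normexp background correction the HCC827 difference was −3.70 in place of −4.55.

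KRT80 was higher with TRIM58-WT in both lines by its group means. It read 3.44, 3.46, 3.74 and 4.18 in A549 mock and 4.08, 4.53 and 4.65 in A549 TRIM58-WT, where only the array labelled A549 mock 3 reached into the TRIM58-WT range. HCC827 mock read 3.28 and 3.86 and HCC827 TRIM58-WT 4.81 and 4.53, without overlap. The differences were 0.63 (SE 0.26) and 1.097 (SE 0.25), and neither was called. With median scaling the A549 difference was 0.26.

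KRT81, a hair keratin, separated the lines and not the vectors. It read 9.26, 9.35, 9.51 and 9.84 in A549 mock, 9.16, 9.77 and 9.91 in A549 TRIM58-WT, 2.29 and 2.11 in HCC827 mock and 2.14 and 2.33 in HCC827 TRIM58-WT. The mock groups differed by 7.35 (SE 0.22), or 163-fold, while the differences between TRIM58-WT and mock were 0.07 (SE 0.26, turning to −0.30 with median scaling and to −0.05 and −0.03 with normexp and quantile normalization) in A549 and 0.04 (SE 0.15) in HCC827. KRT83, a hair keratin of the same chromosome 12 stretch and a close paralog, was also higher in A549 mock than in HCC827 mock, by 2.93 (adjusted p = 0.000759) on its brightest probe. Its other probe, A_24_P410408, differed by 6.92 (adjusted p = 0.00013). That probe was not above background in HCC827 mock, so the size is a bound of at least 99.3-fold. Whether the probes of KRT81 and KRT83 share signal was not tested. The unnamed probe A_23_P363769 read 1.57 to 2.21 over the A549 mock arrays, 1.70 to 2.12 over the A549 TRIM58-WT arrays, 0.03 and 0.22 in HCC827 mock and 1.16 and 1.38 in HCC827 TRIM58-WT.

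The counts that follow describe what the fit over all genes returned for these keratins. They are no test and nothing is read from them, since the keratins were chosen from the same values. Counted by brightest probes, the filter left 7 of the 9 keratins in A549. Of these 7, 2 were called lower (KRT8 and KRT19) and 0 higher, while 4.07% of the 11202 genes tested were called lower and 3.91% higher. Their median difference was −0.65 against 0.03 over all genes tested. In 4 of the 7 the groups did not overlap, as in 34% of all genes. In HCC827, 8 were tested, 1 was called lower (KRT4) and 0 higher, against 0.763% and 0.336% of 12195 genes, and 7 of the 8 did not overlap, against 59.3%. Between the mock groups of the lines, 3 of 8 were called higher in A549 (KRT8, KRT18 and KRT81) and 2 lower (KRT4 and KRT19), against 15.5% and 16.4% of 12407 genes, and 5 did not overlap, against 72.2%. Without the array labelled A549 mock 3, 4 keratins were called lower in A549, namely KRT8, KRT15, KRT17 and KRT19, of which KRT17 passed the filter only through the mock arrays on which it is high. With mock replicate 1 or 2, or TRIM58-WT replicate 2 or 3, left out instead, 1 was.

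**Figure D2:**
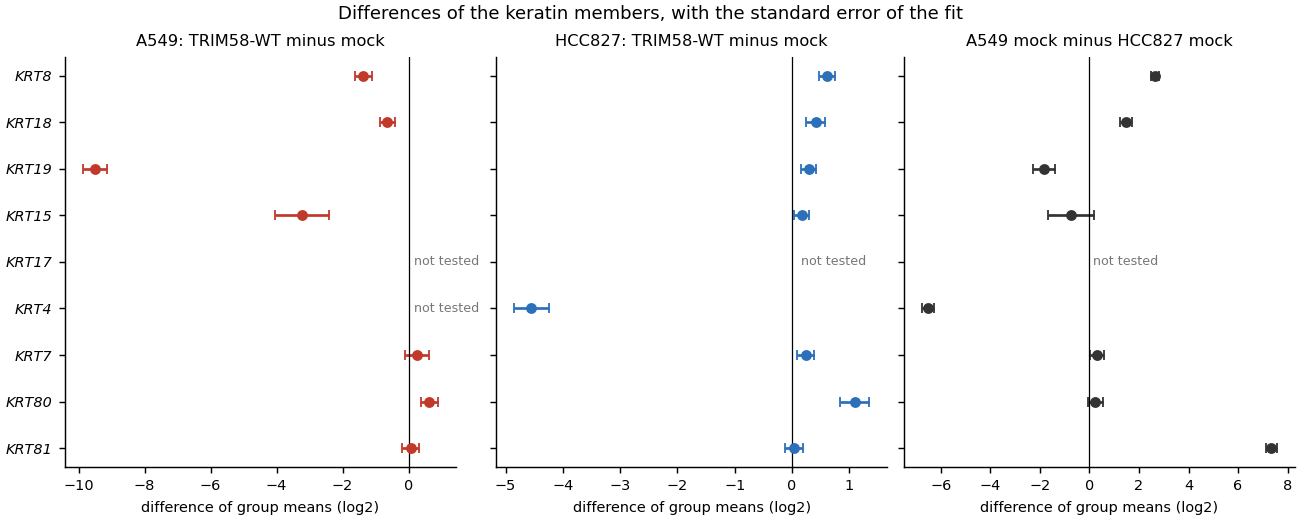
The difference of group means (log2, x axis, scaled separately in each panel) is plotted for each keratin on its brightest probe, with bars of 1 standard error of the fit. KRT8, KRT18, KRT19 and KRT15 lie below 0 in A549 and above 0 in HCC827, and the KRT19 point in A549 rests on a signal not above background in TRIM58-WT.

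The remaining keratins place these values in the family. Of 44 other keratin genes with a named probe, 26 were well above background on none of the 11 arrays, and 4 in A549 mock, 3 in A549 TRIM58-WT and 5 in each HCC827 group were so on every array. KRT6A, a keratin of activated and squamous epithelium, fell in A549 TRIM58-WT: it read 4.36, 4.46, 4.63 and 0.99 on the mock arrays against −4.11, −4.06 and −3.84 with TRIM58-WT, not above background, which is at least 62.8-fold lower (adjusted p = 0.0088). It was the 1 keratin called of 4 tested, against 4.07% of all genes called lower. KRT6A was tested only through the mock arrays, on which it is high, so nothing is read from this count. KRT6A lost the call within the second slide, with normexp and in the alternative test of the study's methods. KRT10 read 5.65 or more over the 7 A549 arrays, and its difference of −0.44 was not called (adjusted p = 0.124). In HCC827, 0 of 6 other keratins were called. KRT16, a partner of KRT6A, was well above background on all 4 HCC827 arrays, and A549 mock lay 3.54 below HCC827 mock (−3.54, adjusted p = 0.00155).

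KRT6B, KRT6C, KRT9 and KRT14 shared the distribution of KRT17 over the A549 arrays and were well above background on mock arrays 1-1, 1-2 and 2 and on no other array. KRT14, the type I keratin of basal cells, read 0.10, 0.23 and 0.12 there, −2.72 on the array labelled A549 mock 3 and −1.79, −4.64 and −3.61 in A549 TRIM58-WT. KRT6C read 0.76, 1.46 and 1.56 there and −2.11 on the array labelled A549 mock 3. Without that array, 5 other keratins were called lower in A549: KRT6A (−8.52, adjusted p = 0.000119), KRT6B (−3.16, adjusted p = 0.00235), KRT6C (−5.41, adjusted p = 0.00143), KRT9 (−2.82, adjusted p = 0.00083) and KRT222 (−2.43, adjusted p = 0.0099). These 5 were named after their values were seen. KRT6B, KRT6C, KRT9 and KRT222 passed the filter only with the array labelled A549 mock 3 left out, through the mock arrays on which they are high. None of the 5 had a TRIM58-WT signal marked in A549, so the sizes are not exact. As bounds over all mock replicates, KRT6B, KRT6C, KRT9 and KRT222 were at least 1.32-, 7.03-, 1.09- and 1.13-fold lower. KRT6A, KRT6B and KRT6C are near copies, and the sharing of signal between their probes was not tested. On A549 TRIM58-WT 1 alone, KRT82 was well above background, at 1.70, as were KRT13, KRT28 and KRT77 at −1.82, −2.53 and −1.90.

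**Figure D3:**
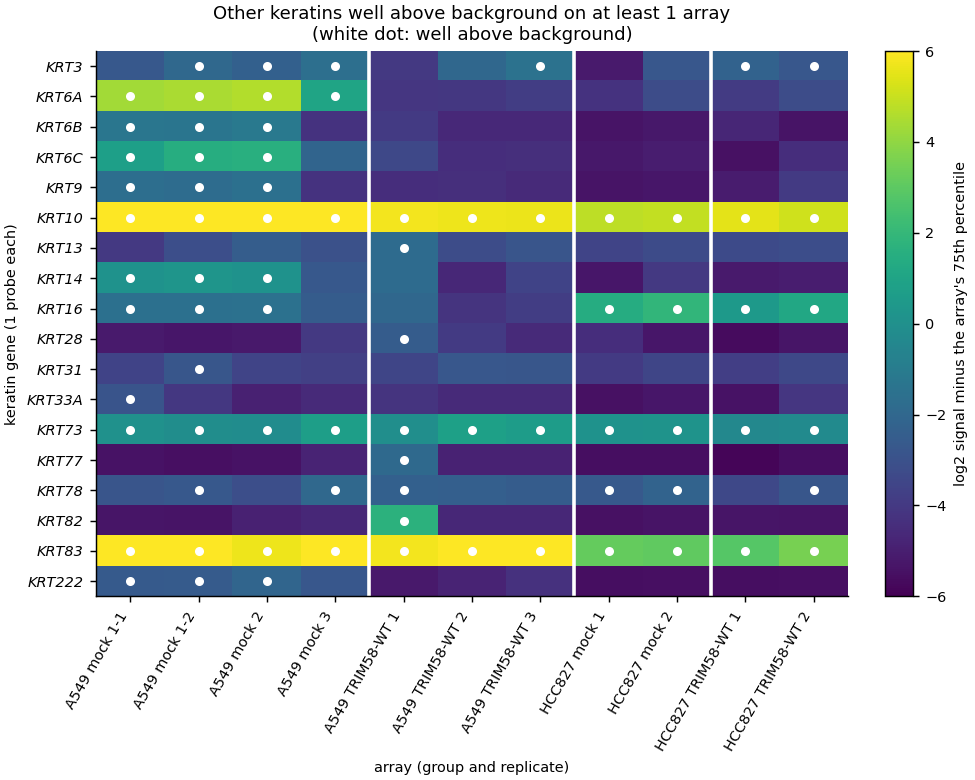
Rows are the 18 other keratins well above background on at least 1 array and columns are the 11 arrays; colour is the log2 signal minus the 75th percentile of the array and white dots mark values well above background. KRT6A, KRT6B, KRT6C, KRT9 and KRT14 are bright on A549 mock arrays 1-1, 1-2 and 2 and dimmer on the array labelled A549 mock 3, and KRT10 and KRT83 are bright throughout A549.

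Genes of the desmosome and of filament anchoring were lower in part in A549 TRIM58-WT. Of 14 such filament partners, 11 were tested and 3 were called lower and 0 higher, against 4.07% and 3.91% of all genes tested. Their median difference was −0.63 against 0.03 over all genes. JUP (plakoglobin) read 4.87, 4.71, 4.88 and 3.87 on the mock arrays against 1.09, −0.85 and −0.61 with TRIM58-WT, and fell by 4.64 (adjusted p = 0.00746). PKP2 (plakophilin 2) fell by 1.98 (adjusted p = 0.00813), with 2 of 3 TRIM58-WT replicates above background. PPL (periplakin) fell by 1.15 (adjusted p = 0.019) to a signal not above background, a bound of at least 1.87-fold. PKP2 and PPL lost the call in 3 and 10 alternatives and kept it in 16 and 9. Both were tested only through mock, where they are high. DSP (desmoplakin) differed by −0.82 and missed the threshold (adjusted p = 0.0515). Without the array labelled A549 mock 3, FAM83H was called as well (−1.64, adjusted p = 0.0349). In HCC827, 0 of 12 partners were called, and JUP stood at 4.10 and 3.99 in mock cells and 4.27 and 4.14 in TRIM58-WT cells.

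Regulators of epithelial transcription moved in both directions in A549. Of 20 genes, 18 had a named probe, 8 were tested, 3 were called lower and 1 higher. Over all genes tested, 4.07% were called lower and 3.91% higher. KLF5 and KLF4, zinc finger factors of epithelial differentiation, fell by 2.54 (adjusted p = 0.00519) and 2.46 (adjusted p = 0.0382). Among the TRIM58-WT arrays only 1 of 3 measured KLF4 above background, so its fall rests in part on signal not measured above background. KLF4 was tested only through mock, where it is high. ELF3, an epithelial ETS factor, fell by 1.56 (adjusted p = 0.0143). KLF4 and ELF3 lost the call in 8 and 7 alternatives and kept it in 11 and 13. SOX2, a factor of basal and squamous airway cells, was not above background on any A549 mock array, read 0.50, −1.63 and −1.50 in TRIM58-WT and was at least 4.04-fold higher (adjusted p = 0.0164). SOX2 was tested only through TRIM58-WT, where it is high, lost the call in 5 alternatives and kept it in 14. Without the array labelled A549 mock 3, TFAP2C was called lower as well (−1.84, adjusted p = 0.0225). In HCC827, GRHL1, a grainyhead factor of surface epithelium, fell by 1.26 (adjusted p = 0.0489), the 1 call of 14 tested, against 0.763% of all genes called lower. It kept the call in 4 alternatives and lost it in 10. SOX2 (−2.84, adjusted p = 0.0687) and FOXA1 (−1.38, adjusted p = 0.0506) differed by more in HCC827 and were not called. Of the genes of squamous differentiation, 0 of 7 were called in A549 and 0 of 10 in HCC827. S100A9 read 0.92, 0.89, 0.56 and −1.06 in A549 mock against −1.65, −4.12 and −3.41 with TRIM58-WT (adjusted p = 0.0525). Without the array labelled A549 mock 3, S100A9, S100A7, SPRR2A and SPRR3 were called lower. Of these, S100A7, SPRR2A and SPRR3 passed the filter only with that array left out, through the mock arrays on which they are high. None of these genes had a TRIM58-WT signal marked in A549.

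**Figure D4:**
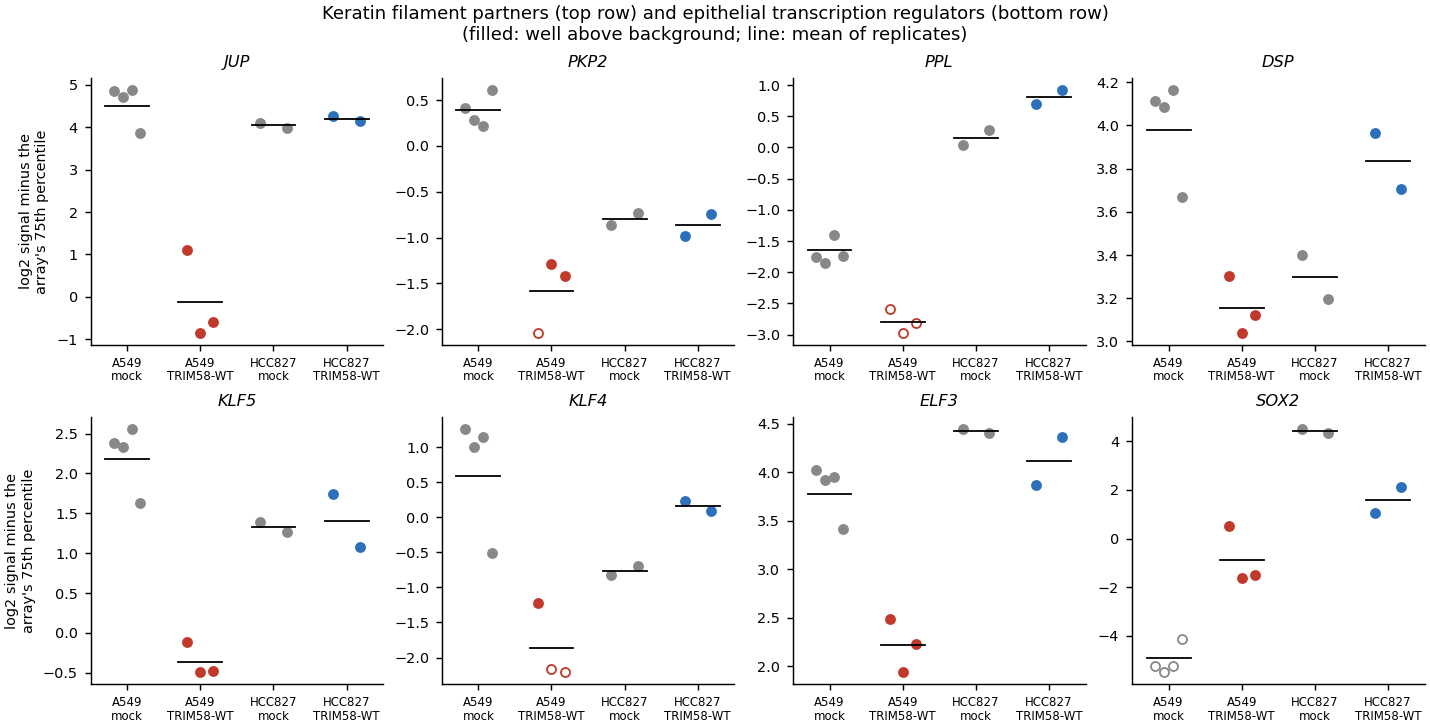
The top row plots filament partners and the bottom row transcription regulators, with the log2 signal minus the 75th percentile of the array on the y axis (its range differs between panels) by group; points are arrays, filled where well above background, and lines are means of replicates. JUP, PKP2, PPL, DSP, KLF5, KLF4 and ELF3 have every A549 TRIM58-WT array below every A549 mock array, and SOX2 has it above.

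Among other intermediate filament genes, 11 were tested in A549, 2 were called lower and 1 higher, against 4.07% and 3.91% of all genes tested. NEFL and INA, filament proteins of neurons, were lower: NEFL at least 41.5-fold (adjusted p = 0.000151), and INA, measured above background in 2 of 3 TRIM58-WT replicates, by 5.15 on the log2 scale (−5.15, adjusted p = 0.0013). Both were tested only through mock, where they are high. SYNC, a filament-binding protein of muscle, rose by 2.32 (adjusted p = 0.00946), and it lost the call in 5 alternatives and kept it in 15. VIM, the vimentin of mesenchymal cells, read 4.65, 4.86 and 4.82 on A549 mock arrays 1-1, 1-2 and 2, 7.48 on the array labelled A549 mock 3 and 6.53, 8.50 and 8.21 in TRIM58-WT, and it was not called with that array in the group (2.07, adjusted p = 0.203) and was called higher without it (2.96, adjusted p = 0.0367). In HCC827, 0 of 11 were called.

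Markers of epithelial cells were lower in part in A549 TRIM58-WT. Of 8 markers, which include KRT8 and KRT18, 5 were tested in A549 and 3 called lower (EPCAM, CLDN4 and KRT8, itself one of the keratins described). Over all genes tested in A549, 4.07% were called lower. In HCC827 0 of 8 were called. In A549, 5 were measured above background throughout A549 mock, 3 throughout A549 TRIM58-WT and 8 in each HCC827 group. Summed on the linear scale relative to the 75th percentile, the 6 that are no keratins ranged from 7.57 to 16.7 in A549 mock, 1.14 to 4.12 in A549 TRIM58-WT, 340 to 342 in HCC827 mock and 365 to 374 in HCC827 TRIM58-WT. EPCAM fell by 4.88 in A549 (adjusted p = 0.0117), with 1 of 3 TRIM58-WT replicates above background. CLDN4 was at least 8.01-fold lower (adjusted p = 0.0181), on no TRIM58-WT array above background. EPCAM and CLDN4 were tested only through mock, where they are high. CDH1 differed by −2.33 and was not called (adjusted p = 0.0716), and ESRP1 and ESRP2 were above background on no A549 array. The sum of 5 mesenchymal markers ranged from 28.5 to 192 in A549 mock, 121 to 395 in A549 TRIM58-WT, 2.42 to 3.22 in HCC827 mock and 5.12 to 7.47 in HCC827 TRIM58-WT, with the highest A549 mock sum on the array labelled A549 mock 3. VIM made up most of this sum, so it does not show the markers moving together. Of 3 tested in A549, CDH2 alone was called (2.72 higher, adjusted p = 0.0472). In HCC827, 0 of 3 were called: VIM differed by 1.43, CDH2 by −1.35 (on no TRIM58-WT array above background) and ZEB1 by −0.31. PECAM1 of endothelium was well above background on no array, and PTPRC of leukocytes was so on 2 of 4 A549 mock, 2 of 3 A549 TRIM58-WT, 2 of 2 HCC827 mock and 1 of 2 HCC827 TRIM58-WT arrays, at −3.13 to −1.64 over all 11. The part of these markers in the keratin values was not tested, and in bulk RNA fewer cells of a type and less RNA per cell cannot be told apart.

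The lines were also compared in their change. For the list genes that are no members, the difference of the TRIM58-WT change between A549 and HCC827 was called at an adjusted p under 0.05 for 1 of 7 other keratins (KRT6A, −7.48, adjusted p = 0.0236, above background in A549 mock alone) and for 4 of 12 filament partners, against 4.62% of 12842 genes. The change of JUP in A549 minus that in HCC827 was −4.80 (SE 0.78, adjusted p = 0.0159), and those of PKP2, PPL and DSP were −1.91, −1.80 and −1.36, with PPL above background on no A549 TRIM58-WT array. The same differences for the keratins described here, given without a test, were −9.79 for KRT19 (on no A549 TRIM58-WT array above background), −3.40 for KRT15, −1.98 for KRT8, −1.07 for KRT18 and 3.87 for KRT4, and between −0.47 and 0.03 for KRT7, KRT80 and KRT81.

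Genes with the pattern most like 3 of the keratins over the 10 replicates were listed from 12822 others by Pearson's r, as a description with no test; the replicates share lines and vectors. For KRT19 they were STK26 (0.996), CALHM2 (0.996), TUSC1 (0.995), SCEL (0.995) and CAVIN3 (0.993). For KRT81 they were BMERB1 (0.999), AKAP12 (0.999), PRKCQ-AS1 (0.998), TNFRSF1A (0.998) and TRIML2 (0.998). For KRT8 they were LANCL1 (0.991), LOC388242 (0.988), IRS2 (0.986), CCN5 (0.984) and FAM107B (0.984). Among the keratins themselves, KRT8 and KRT18, neighbours on chromosome 12, had r = 0.89, and KRT15 and KRT19 had 0.93.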

How the data were processed

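Total RNA of the 11 samples was labelled with Cy3 and hybridised to SuperPrint G3 Human GE 8x60k arrays. The authors deposited spot intensities from Agilent Feature Extraction (11.5.1.1 per the file headers, 10.7 per the processing notes in the labels), with the background subtracted and trends within each array removed, and a table of log2 values whose baseline per probe is not stated. With R 4.3.3 and limma 3.58.1, control and outlier spots were left out, spots of a probe were averaged, and processed signals were put on a log2 scale, from which each array's 75th percentile over 42405 probes was subtracted. Of these, 27241 were named through RefSeq accessions (GRCh38.p14) as 20249 genes. After outlier spots were left out, 28 values were missing, and no spot was saturated (0 on each array). The number of arrays limits the precision. Samples were grouped by their labels. Probes were fitted with lmFit and eBayes, with Benjamini-Hochberg adjustment over all probes tested, each line and the mock groups separately and all 4 groups for the difference between lines, which was called on the adjusted p alone.

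The keratins, the lists of partner, regulator, squamous, filament and marker genes, and the tests were chosen with earlier results of these data known. Up to 3 called genes per list and direction were named. A probe above background on no array of a group has a bound, computed against the lowest signal well above background on each array. Some probes above that floor were still not marked, such as CLDN4 at −2.26 on A549 TRIM58-WT 1 and KRT3 at −1.97 on A549 TRIM58-WT 2. A probe's own limit can thus lie higher, and the bounds are not strict. Alternatives were median, quantile and normexp (offset 50) processing, other filters, outlier spots kept, the authors' log2 table, slide and replicate blocks, each slide alone, each replicate left out, 1 fit of all groups, other probes, and the methods' t-test (Welch). On simulated data with 200 probes changed by 2 (log2), 65.0% were called in the A549 design and 49.5% in the HCC827 design, with 4 and 6 false calls. The simulated noise was drawn separately for each probe and replicate and holds none of the deviations that the A549 arrays share across probes. These figures therefore do not give the error rate in these data. Replicate numbers were not taken to pair the samples. The deviations of same-numbered A549 samples correlated at 0.50, −0.42 and 0.50. Deviations from a group mean are tied to each other, so these values cannot show whether the numbers pair the samples. The authors' own comparisons were not used. Plots used matplotlib 3.10.9 under Python 3.11.15.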

Additional observations from a re-analysis of the deposited data

Results flagged for a closer look

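The change with TRIM58-WT differed between the lines for 10 genes by the test of the difference itself, over all lists but the cell type markers. These were 1 of 7 other keratins, 4 of 12 filament partners, 3 of 14 regulators and 2 of 12 other filament genes. Of 12 squamous genes 0 were called, and of all 12842 genes tested 4.62% were. Of the markers other than keratins, EPCAM (−4.89) and 1 of 3 mesenchymal genes were called as well. Values are the log2 change in A549 minus that in HCC827. KRT6A had −7.48, JUP −4.80, PKP2 −1.91, PPL −1.80 and DSP −1.36 among keratins and filament partners. KLF4 had −3.38, KLF5 −2.62 and SOX2 6.88 among the regulators, with SOX2 higher in A549 TRIM58-WT and lower in HCC827 TRIM58-WT than in mock. NEFL had −6.59 and INA −4.30 among other filament genes. KRT6A and NEFL were well above background in A549 mock alone, PPL on no A549 TRIM58-WT array and SOX2 on no A549 mock array, so the sizes for these 4 rest on signal not measured above background and are not exact. KLF4 was above background on 1 and PKP2 and INA on 2 of the 3 A549 TRIM58-WT arrays. For KRT19 (−9.79), KRT15 (−3.40), KRT8 (−1.98) and KRT18 (−1.07) every TRIM58-WT replicate lay below every mock replicate in A549 and above every one in HCC827 on the brightest probe. Of all genes tested, 34% in A549 and 59.3% in HCC827 had groups that did not overlap, in either direction and in each line alone. The share of all genes with the reversed pattern over both lines was not computed. KRT19 was above background on no A549 TRIM58-WT array, so its size is not exact either. The difference between the lines was not tested for these 4, since they were chosen on the same values.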

How the results depend on the processing

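The keratin differences kept their direction where they were called, except that KRT8 in A549 read −1.37 on its brightest probe and 0.33 on the probe of a non-coding record. Scaling on array medians moved the median of all probes by −0.37 in A549 and the called probes from 591 higher and 580 lower to 285 and 828, and in HCC827 from 57 and 116 to 300 and 350. KRT19 in A549 was −6.89 with normexp, and KRT8 was −0.95 within slide 1, which holds 1 A549 TRIM58-WT array. Counts of calls among the keratins describe the fit only, since these values chose the keratins.

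Keratins called lower in A549 numbered 2, and 1 with quantile normalization, normexp, no filter or the filter on every array. Other keratins called lower in A549 numbered 1, 0 with normexp, within slide 2 or with the filter on every array, 2 with no filter and 6 within slide 1, where 3 were higher in place of 0. The filament partners called numbered 3, and 1 with normexp or the filter on every array. The regulators called numbered 4, and 2 with normexp, within slide 2 or with the filter on every array. The other filament genes called numbered 3, 1 with the filter on every array and 5 within slide 1. Squamous genes called numbered 0, 1 with quantile normalization, the authors' table, 1 fit of all groups or mock arrays 1-1 and 1-2 kept separate, 2 with median scaling or slide as a block, and 6 within slide 1.

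In HCC827, the keratins called lower numbered 1, and 0 with no filter. The regulators called numbered 1, 0 with no filter, the authors' table or 1 fit of all groups, 2 with normexp, 3 with median scaling and 4 with the filter on every array. Other filament genes called numbered 0, 2 with median scaling and 1 with the filter on every array. Between the mock groups, other keratins called higher numbered 3, 7 with no filter and 8 within slide 1, those called lower 1 and 0 with the filter on every array, and the keratins called lower 2 and 1 with that filter. Other keratins whose change differed between the lines numbered 1, 0 with normexp or the filter on every array, 2 with no filter, slide as a block or separate mock arrays, and 8 within slide 1.

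The methods' t-test called 24 probes in A549 and 0 in HCC827. It left 0 keratins, 0 other keratins, 0 partners and 0 regulators and 1 other filament gene in A549, and 0 keratins and 0 regulators in HCC827. The replicate number was also used as a block, although nothing shows that it pairs the samples. In A549, 1 squamous gene was then called in place of 0. In HCC827, 0 keratins and 0 regulators were called in place of 1 each. For the difference between the lines, 0 other keratins were called in place of 1.

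With each replicate left out in turn, calls in A549 ranged from 1 to 4 for the keratins, 1 to 5 for other keratins, 1 to 4 for partners, 1 to 5 for regulators and 0 to 4 for squamous genes, the highest without the array labelled A549 mock 3. In HCC827 they ranged from 0 to 1 for the keratins and 0 to 1 for regulators, between the mock groups from 1 to 2 for keratins called lower and 2 to 8 for other keratins called higher, and for the difference between the lines from 0 to 5 for other keratins. JUP, KLF5, INA and NEFL kept their A549 calls in every alternative that tested them, apart from the t-test for JUP, KLF5 and INA. The cause of these changes was not tested.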
